A study of Homo sapiens with 12 samples.

Results

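The RAF, MEK, ERK and RSK kinases form a relay that carries signals from RAS proteins at the membrane to the cytoplasm and nucleus. RAF kinases phosphorylate MEK kinases, MEK kinases phosphorylate ERK kinases, and ERK kinases phosphorylate many proteins, RSK kinases among them. In myoblasts this relay is known to favour proliferation and to hold back terminal differentiation, and in fusion-negative rhabdomyosarcoma it is known to be a frequent target of activating RAS pathway mutations. The genes described here were the 8 named rows ARAF, BRAF, MAP2K1, MAP2K2, MAP2K5, MAPK3, RPS6KA1 and RPS6KA3 of a table of 26485 gene rows. They were chosen by name, with earlier results of these data known. All 8 passed the filter on low counts, among 15206 genes tested.

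The measurements were RNA read counts from RD, a cell line of human origin that was derived from a tumour of the muscle lineage, a rhabdomyosarcoma without a PAX-FOXO1 fusion. The cells carried a doxycycline-inducible hairpin against NT5E, which encodes the surface enzyme CD73, in one of 2 constructs titled ish and ish2. The 4 groups were ish with Dox, ish without Dox, ish2 with Dox and ish2 without Dox, with 3 libraries each. Dox was given at 10 ng/mL for 96 h, and the groups without Dox carried the same uninduced hairpins. No library paired Dox with a non-targeting hairpin, so effects of Dox itself, of hairpin expression and of lower NT5E cannot be told apart. The labels do not say whether a line is 1 clone, or that replicates are separate cultures, so p-values measure only the spread between these libraries, which may be technical. In bulk RNA, fewer cells of a kind and less RNA per cell cannot be told apart.

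NT5E fell in both constructs and far more in ish. It had 59, 37 and 50 reads in ish with Dox, against 453, 563 and 558 reads in ish without Dox. In ish2 it had 424, 409 and 441 reads with Dox, against 668, 626 and 612 reads without Dox. The log2 fold change, Dox over no Dox, was -3.41 in ish (SE 0.11, edgeR adjusted p = 3.31e-25) and -0.67 in ish2 (SE 0.065, edgeR adjusted p = 4.62e-11). Between the uninduced lines NT5E was also lower in ish (log2 fold change -0.47, ish over ish2, edgeR adjusted p = 6.14e-07). Gene reads per library ran from 26566603 to 32692207. Of 7 muscle markers, 6 were read at 16.5 CPM or more in every library and MYF5 was at or near 0, while 11 epithelial, endothelial and blood markers stayed at or below 5.68 CPM. The ranges of the 6 muscle markers did not overlap between Dox and no Dox in either construct, and their directions were mixed. In ish, MYOD1, MYOG, DES, CHRND and CDH15 lay higher with Dox and FGFR4 lower. In ish2, MYOD1 and DES lay higher with Dox and MYOG, CHRND, CDH15 and FGFR4 lower. MYOG, a muscle differentiation factor, had 633 to 661 CPM in ish with Dox, against 104 to 111 CPM without Dox, and 16.5 to 18.4 CPM in ish2 with Dox, against 73.6 to 93.5 CPM without Dox. DES, which encodes the muscle filament desmin, had 515 to 545 CPM in ish with Dox, against 299 to 314 CPM without Dox, and 481 to 503 CPM in ish2 with Dox, against 314 to 317 CPM without Dox. FGFR4, a growth factor receptor, had 207 to 213 CPM in ish with Dox, against 420.1 to 449 CPM without Dox, and 247 to 253 CPM in ish2 with Dox, against 381 to 399.7 CPM without Dox. These marker values are on plain library totals, and the part of these shifts in the kinase results was not tested.

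MAP2K1 encodes MEK1, which phosphorylates and activates ERK kinases. In ish its mRNA gave the largest change of the 8 genes, and the direction was opposite in the 2 constructs. In ish it fell to 134, 128 and 127 CPM with Dox, against 677, 669 and 682 CPM without Dox, where CPM are counts per 1e6 reads scaled with TMM factors. In ish2 it reached 1001, 1007 and 1032 CPM with Dox, against 694, 703 and 646 CPM without Dox. The Dox and no-Dox libraries did not overlap in either construct, here or for any other of the 8 kinases, as for 80.6% of tested genes in ish and 66.6% in ish2. Without Dox the 2 lines overlapped each other for MAP2K1.

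In ish the fall of MAP2K1 was 5.22-fold, with a log2 fold change of -2.38 (SE 0.03, edgeR adjusted p = 9.02e-38). Of the 15206 genes tested, 194 had a lower log2 fold change in ish than MAP2K1. In ish2 the gene rose 1.49-fold (log2 fold change 0.57, SE 0.03, edgeR adjusted p = 1.03e-19), and 10.1% of tested genes had a higher log2 fold change. The Dox effects differed by -2.96 on the log2 scale, ish minus ish2 (SE 0.04, edgeR adjusted p = 4.01e-36).

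**Figure D1:**
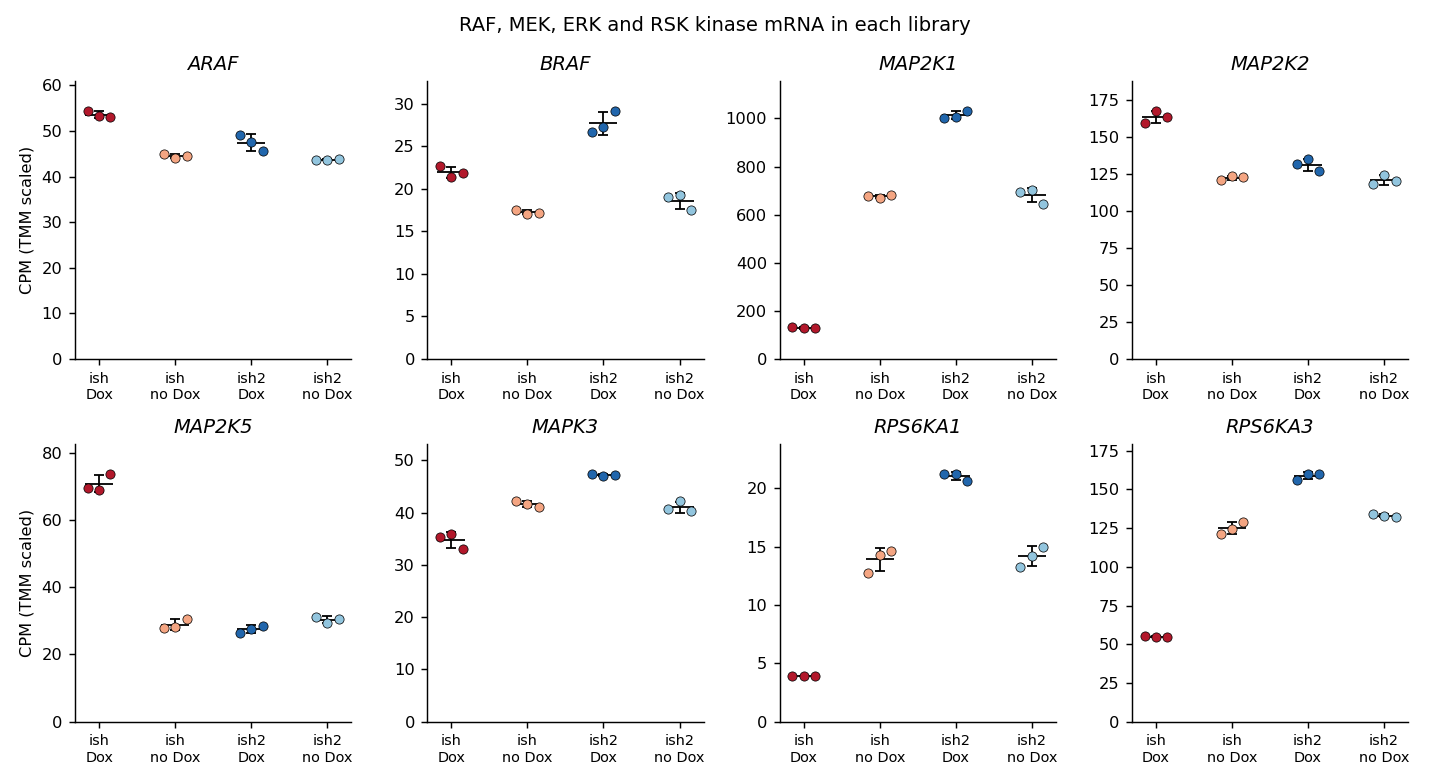
CPM (TMM scaled, linear axes from 0) of the 8 kinases in each of the 12 libraries, by construct and Dox. Points are libraries, and the bar and whiskers are the mean and SD of 3. MAP2K1, MAPK3, RPS6KA1 and RPS6KA3 were lowest in ish with Dox, where ARAF, MAP2K2 and MAP2K5 were highest.

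The stretches before the starts of MAP2K1, RPS6KA1 and MAP2K5 are shown because these 3 genes had the largest fold changes of the 8 in ish. They were picked by those values, so their letters are no comparison of genes by response. They are from the RefSeq promoter table (GRCh38.p14), all on the plus strand, 5′ to 3′, and end before the first base that GENCODE annotates to the gene. Capitals mark matches on either strand to CCGGAA (the ETS core), GGGCGG (the GC box) or CAGCTG (an E-box found at many muscle genes). TGANTCA (the AP-1 site) and TGACGTCA (the cAMP response element) were also searched and had no match in these 3 windows.
MAP2K1, chr15:66386662-66386816: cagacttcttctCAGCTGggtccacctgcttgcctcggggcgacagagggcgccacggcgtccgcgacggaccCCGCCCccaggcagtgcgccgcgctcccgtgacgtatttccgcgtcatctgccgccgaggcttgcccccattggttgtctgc
RPS6KA1, chr1:26529511-26529760: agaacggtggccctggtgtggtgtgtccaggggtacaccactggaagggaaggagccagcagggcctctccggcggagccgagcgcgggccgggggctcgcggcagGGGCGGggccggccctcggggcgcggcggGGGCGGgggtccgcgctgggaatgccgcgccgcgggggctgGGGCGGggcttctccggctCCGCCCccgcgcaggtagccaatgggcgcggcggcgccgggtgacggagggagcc
MAP2K5, chr15:67542453-67542702: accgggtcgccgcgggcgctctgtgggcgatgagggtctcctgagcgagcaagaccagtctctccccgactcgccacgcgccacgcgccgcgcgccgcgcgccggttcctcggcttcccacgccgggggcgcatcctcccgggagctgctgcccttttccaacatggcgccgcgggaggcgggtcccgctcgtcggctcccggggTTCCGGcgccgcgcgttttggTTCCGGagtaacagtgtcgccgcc

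The 155 bases of MAP2K1 held 1 GC box and 1 CAGCTG. Over the same 155 bases of all 35116 promoters in the table, 26.7% held a GC box and 8.77% held CAGCTG. These were the first 155 of the 250 bases before each RefSeq start. They were not chosen to end at the annotated start of each gene, as the MAP2K1 stretch does. The 250 bases of RPS6KA1 held 4 GC boxes, which 42.6% of promoters held at least once in that window, and the 250 bases of MAP2K5 held 2 ETS cores, which 14.5% held at least once. Of the windows not printed, the 145 bases of ARAF held 1 ETS core and the 243 bases of MAP2K2 held 2 GC boxes. For BRAF, MAPK3 and RPS6KA3 no base was searched, as their table windows lay within the annotated gene. A match of letters is a description and not a binding site.

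Without Dox, the 2 lines started from closely similar kinase levels. MAP2K1 averaged 676 ± 6.45 CPM in ish without Dox and 681 ± 30.5 CPM in ish2 without Dox (SD, n = 3 each). Of the 8 kinases, 1 was called between the uninduced lines, where 26.1% of all tested genes were, 12.4% higher and 13.7% lower in ish. That gene was RPS6KA3 (log2 fold change -0.09, ish over ish2, SE 0.03, edgeR adjusted p = 0.0166). Its adjusted p became 0.121 without ish no-Dox replicate 1, 0.0601 without ish no-Dox replicate 2 and 0.0622 without ish2 no-Dox replicate 1, over a range of 0.00659 to 0.121 for the alternatives fitted against no change. Against a null of a 1.2-fold change, 0 of the 8 were called between the uninduced lines, where 1.06% of tested genes were, 0.73% higher and 0.329% lower. At an unadjusted p under 0.05 against no change, edgeR called 1 of the 8, RPS6KA3, and DESeq2 called 1 after adjustment.

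ARAF and BRAF encode RAF kinases, which active RAS recruits to the membrane and which phosphorylate MEK. Both genes rose with Dox in both constructs. ARAF had 54.4, 53.2 and 53.0 CPM in ish with Dox, against 45.0, 44.2 and 44.5 CPM in ish without Dox. In ish2 it had 49.2, 47.6 and 45.6 CPM with Dox, against 43.7, 43.6 and 43.96 CPM without Dox. The rise was 20.2% in ish (log2 fold change 0.27, SE 0.04, edgeR adjusted p = 3.40e-08) and 8.48% in ish2 (0.12, SE 0.04, edgeR adjusted p = 0.00704). The ish2 call was lost without ish2 Dox replicate 1 (edgeR adjusted p = 0.102) and without ish2 Dox replicate 2 (0.0535), within a range of 0.00599 to 0.102 over the alternatives fitted against no change.

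Of the 3 kinases that rose in both constructs, BRAF was the one with the larger rise in ish2. Its level was 22.6, 21.4 and 21.9 CPM in ish with Dox, against 17.5, 17.1 and 17.1 CPM in ish without Dox. The ish2 libraries had 26.7, 27.3 and 29.2 CPM with Dox, against 19.0, 19.2 and 17.5 CPM without Dox, with no overlap. The log2 fold change was 0.35 in ish (SE 0.05, edgeR adjusted p = 2.62e-07) and 0.58 in ish2 (SE 0.05, edgeR adjusted p = 4.52e-12). Their difference, ish minus ish2, was -0.23 (SE 0.07, edgeR adjusted p = 0.00667). BRAF shares 1239 exon bases with NDUFB2 on the opposite strand, 5.29% of its own. NDUFB2 itself rose in both constructs (log2 fold change 0.82 in ish and 0.28 in ish2), and the sources used here do not say whether reads were counted by strand. ARAF shares 23 exon bases with SYN1, which had at most 25 reads per library.

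MAP2K2 encodes MEK2, the close relative of MEK1 that also activates ERK. In ish it rose where MAP2K1 fell, to 159.7, 168 and 163 CPM with Dox, against 121, 124 and 123 CPM without Dox. In the ish2 line MAP2K2 had 132, 135 and 127 CPM with Dox, against 118, 124 and 120.5 CPM without Dox. The rise was 1.33-fold in ish (log2 fold change 0.42, SE 0.03, edgeR adjusted p = 1.44e-15) and 1.08-fold in ish2 (0.12, SE 0.03, edgeR adjusted p = 0.000835). Neither construct showed overlap, although in ish2 the nearest libraries of the 2 groups lay at 127 CPM with Dox and 124 CPM without it.

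The balance of the 2 MEK genes within a library does not depend on how libraries are scaled. Set per length of the principal transcript, MAP2K1 made up 29.9%, 27.9% and 28.4% of MAP2K1 plus MAP2K2 in ish with Dox, against 74.0%, 73.3% and 73.8% in ish without Dox. In ish2 the share was 79.4%, 79.1% and 80.5% with Dox, against 74.9%, 74.2% and 73.2% without Dox. The ratio of MAP2K1 to MAP2K2 was 6.96-fold lower with Dox in ish and 1.37-fold higher in ish2, and groups did not overlap (exact two-sided permutation p = 0.1, the smallest that 3 against 3 can give). The sum of both per length averaged 132 ± 1.6 CPM per kb in ish with Dox, against 269 ± 1.68 CPM per kb without Dox (SD, n = 3 each). In ish2 the sum averaged 373 ± 3.15 CPM per kb with Dox, against 269.6 ± 9.66 CPM per kb without Dox.

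Which MEK gene was the more abundant in ish with Dox depended on the length used. With all annotated exon bases in place of the principal transcript, the mean MAP2K1 share was 52.5% in ish with Dox, against 88.5% in ish without Dox. In ish2 it was then 91.5% with Dox, against 88.7% without Dox. The direction of each Dox effect on the share was the same with both lengths.

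**Figure D2:**
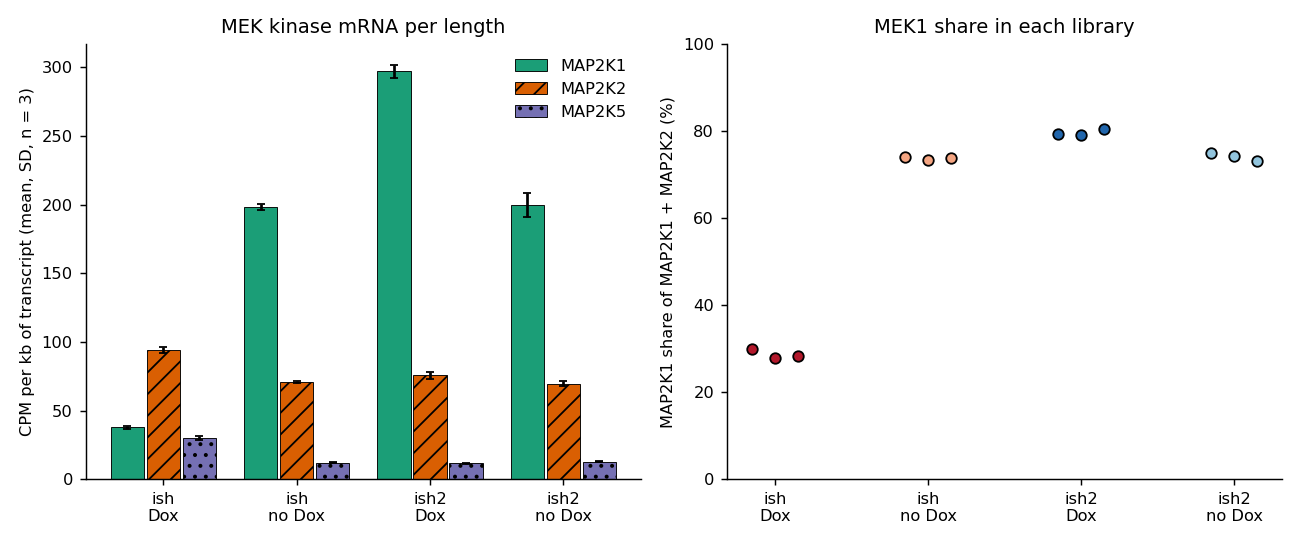
Left, mean CPM per kb of principal transcript of the 3 MEK genes in each group, with SD over 3 libraries. Right, MAP2K1 as a percentage of MAP2K1 plus MAP2K2 per length in each library, 27.9% to 29.9% in ish with Dox and between 73.2% and 80.5% in the other groups.

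MAP2K5 encodes MEK5, which activates ERK5 in an arm parallel to MEK1 and MEK2. It rose in ish to 69.5, 69.0 and 73.8 CPM with Dox, against 27.8, 28.2 and 30.6 CPM without Dox. The ish2 line had 26.2, 27.6 and 28.5 CPM with Dox, against 31.2, 29.2 and 30.4 CPM without Dox. The ish groups stood far apart, and the ish2 groups came within 1 CPM of each other without overlap. The rise in ish was 2.45-fold (log2 fold change 1.29, SE 0.04, edgeR adjusted p = 1.98e-25), and 4.95% of tested genes had a higher log2 fold change there. In ish2 the log2 fold change was -0.14 (SE 0.05, edgeR adjusted p = 0.0121). That call was lost without ish2 Dox replicate 1 (edgeR adjusted p = 0.0538, with a range of 0.00337 to 0.0538 over the alternatives fitted against no change). The effects differed by 1.43, ish minus ish2 (SE 0.065, edgeR adjusted p = 8.17e-21).

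MAP2K1 and MAP2K5 both lie on the long arm of chromosome 15 in GENCODE v29 (GRCh38). MAP2K1 runs from 66386817 to 66492312 and MAP2K5 from 67542709 to 67807123, both on the plus strand. MAP2K1 shares 216 exon bases, 5.75% of its own, with SNAPC5 on the opposite strand. An antisense gene without a row in the count table, AC116913.1, shares 432 of them, 11.5%. SNAPC5 had 45 to 173 reads per library and moved against MAP2K1, with log2 fold changes of 0.61 in ish and -0.95 in ish2.

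MAPK3 encodes ERK1, an ERK kinase that MEK1 and MEK2 phosphorylate. It changed least in ish together with ARAF, and in opposite directions between constructs. In ish it had 35.4, 35.9 and 32.99 CPM with Dox, against 42.3, 41.7 and 41.2 CPM without Dox. With ish2 it had 47.5, 47.0 and 47.2 CPM with Dox, against 40.6, 42.2 and 40.3 CPM without Dox. The log2 fold change was -0.27 in ish (SE 0.04, edgeR adjusted p = 2.39e-07) and 0.20 in ish2 (SE 0.04, edgeR adjusted p = 2.89e-05). MAPK3 shares no exon bases with another annotated gene and lies on chromosome 16 from 30114105 to 30123506 on the minus strand.

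RPS6KA1 and RPS6KA3 encode RSK1 and RSK2, kinases that ERK phosphorylates and that act on ribosomal, cytoskeletal and nuclear proteins. Both fell in ish and rose in ish2. RPS6KA1 fell to 3.90, 3.92 and 3.88 CPM in ish with Dox, from 118 to 126 reads per library, against 12.8, 14.3 and 14.7 CPM without Dox. In ish2 RPS6KA1 had 21.2, 21.3 and 20.6 CPM with Dox, against 13.3, 14.2 and 14.97 CPM without Dox. The groups stood apart in both constructs. RPS6KA1 was 3.57-fold lower in ish (log2 fold change -1.83, SE 0.08, edgeR adjusted p = 2.18e-21) and the rise in ish2 was 1.49-fold (0.57, SE 0.06, edgeR adjusted p = 1.70e-10).

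RPS6KA3 was the more abundant of the 2 RSK genes in every library, on the per-length scale. It fell to 55.6, 54.4 and 54.9 CPM in ish with Dox, against 121, 125 and 129 CPM without Dox. In ish2 it had 156, 159.8 and 160.2 CPM with Dox, against 134, 133 and 132 CPM without Dox. RPS6KA3 was 2.27-fold lower in ish (log2 fold change -1.19, SE 0.03, edgeR adjusted p = 1.15e-28) and the rise in ish2 was 1.19-fold (0.26, SE 0.03, edgeR adjusted p = 3.47e-10). The per-length ratio of RPS6KA3 to RPS6KA1 averaged 5.53 ± 0.0744 in ish with Dox, against 3.54 ± 0.17 without Dox, and 2.96 ± 0.0828 in ish2 with Dox, against 3.70 ± 0.257 without Dox (SD, n = 3 each). RPS6KA1 lies on chromosome 1 from 26529761 to 26575030 (plus strand), and RPS6KA3 on chromosome X from 20149911 to 20267519 (minus strand).

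**Figure D3:**
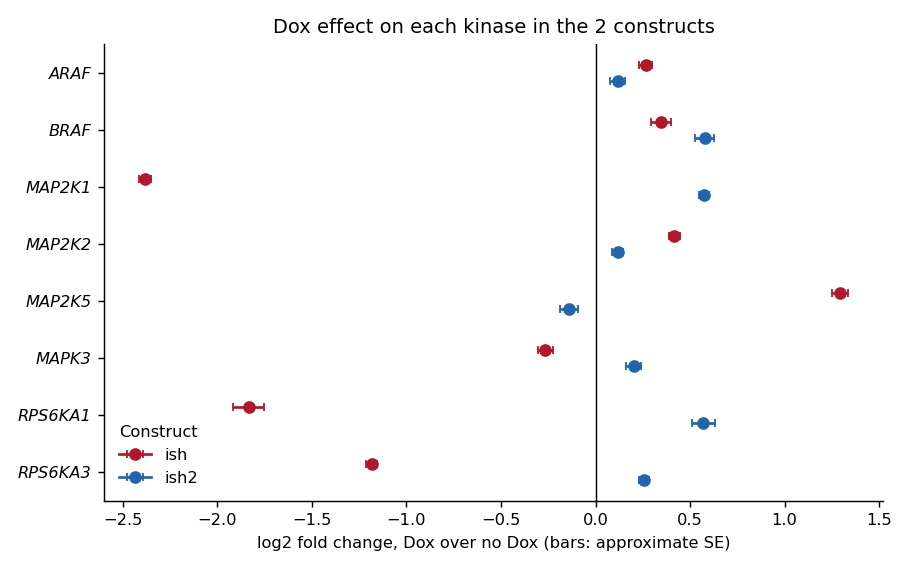
Log2 fold change, Dox over no Dox, of each kinase in ish and ish2, with the approximate SE of the quasi-likelihood fit. In ish the values ran from -2.38 for MAP2K1 to 1.29 for MAP2K5, and in ish2 from -0.14 to 0.58.

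All 8 kinases were called in each construct, but so were most genes. In ish 4 rose and 4 fell, where 78.6% of all tested genes were called, 39.1% of them higher and 39.5% lower as shares of those tested. In ish2 7 rose and 1 fell, where 65% were called, 33.9% higher and 31.1% lower. The median absolute log2 fold change of the 8 kinases was 0.80 in ish, against 0.40 over all tested genes, and in ish2 it was 0.23, against 0.25. As the kinases were chosen with earlier results of these data known, these counts and medians are no test of the family against other genes. Against a null of a 1.2-fold change, 6 kinases were called in ish and 3 in ish2, where 52% (24.8% higher, 27.2% lower) and 29.1% (14.9% higher, 14.2% lower) of tested genes were. The 6 were MAP2K1, RPS6KA1 and RPS6KA3, which fell, and BRAF, MAP2K2 and MAP2K5, which rose. The 3 in ish2 were BRAF, MAP2K1 and RPS6KA1, which all rose.

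The direction of response split the kinases into 3 patterns. As the kinases were chosen with earlier results known, the shares over all genes are a description and no test. MAP2K1, MAPK3, RPS6KA1 and RPS6KA3 fell in ish and rose in ish2, 4 of 8 kinases, where 14.1% of tested genes were called in those directions. ARAF, BRAF and MAP2K2 rose in both, 3 of 8, where 13.8% of tested genes did. MAP2K5 alone among the 8 rose in ish and fell in ish2, as did 12% of tested genes. These directions rest on calls against no change. Against a null of a 1.2-fold change, MAP2K1, RPS6KA1 and BRAF were called in both constructs, and MAPK3 and ARAF in neither. RPS6KA3, MAP2K2 and MAP2K5 were called against it in ish only. The difference of the Dox effects was called for all 8 kinases, 3 higher and 5 lower, where 72.6% of tested genes were, 35.2% higher and 37.4% lower. It was -2.41 for RPS6KA1 (SE 0.10) and -1.44 for RPS6KA3 (SE 0.04), ish minus ish2. Against a null of a 1.2-fold change it was called for 5 of 8, 1 higher and 4 lower, where 51.7% of tested genes were, 24.4% higher and 27.3% lower.

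**Figure D4:**
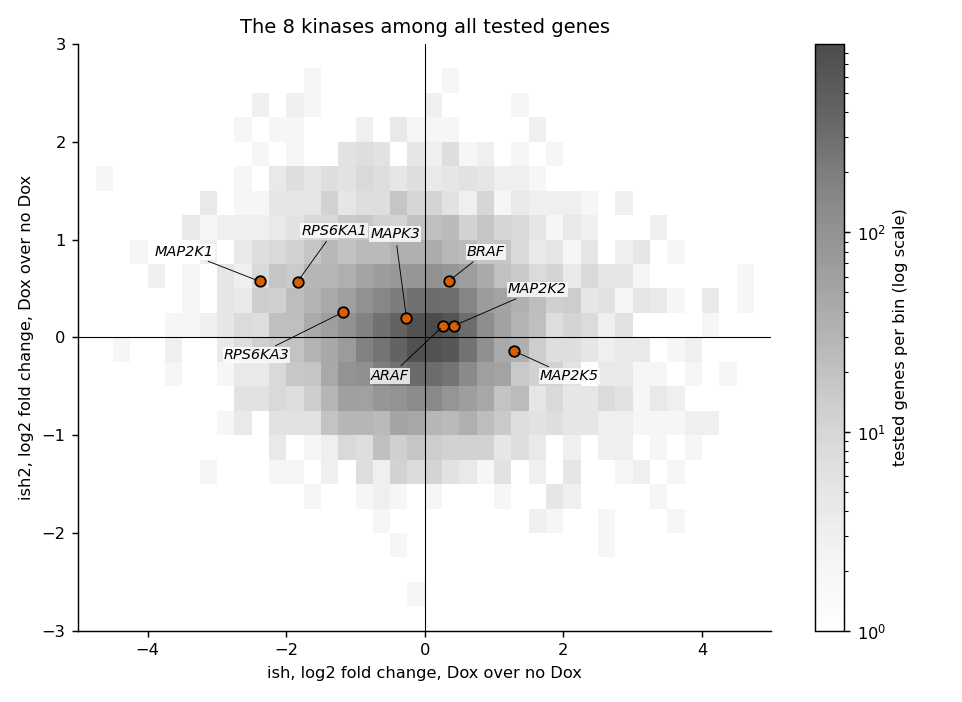
Dox effect in ish (x) against that in ish2 (y), as log2 fold changes, with grey bins for 15155 of 15206 tested genes on a log colour scale and orange points for the 8 kinases. MAP2K1, RPS6KA1, RPS6KA3 and MAPK3 lie in the upper left, lower in ish and higher in ish2.

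Some order of levels was shared across the groups. MAP2K1, RPS6KA1 and RPS6KA3 ran from ish with Dox, the lowest, through ish without Dox and ish2 without Dox to ish2 with Dox, the highest. The uninduced lines overlapped for MAP2K1 and RPS6KA1, while those of RPS6KA3 did not. For ARAF the order was ish2 without Dox, ish without Dox, ish2 with Dox and ish with Dox, with no overlap between neighbours. For MAP2K5 the 3 lowest groups, ish2 with Dox, ish without Dox and ish2 without Dox, overlapped their neighbours.

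Set per length of the principal transcript, MAP2K1 was the most abundant of the 8 in 3 groups, at 297 ± 4.76 CPM per kb in ish2 with Dox, 198 ± 1.89 CPM per kb in ish without Dox and 199.8 ± 8.95 CPM per kb in ish2 without Dox. In ish with Dox it averaged 38.03 ± 1.10 CPM per kb, and MAP2K2 averaged 94.3 ± 2.32 CPM per kb (SD, n = 3 each), an order of the 2 genes that turned round with all annotated exon bases as length. MAP2K5 averaged 30.2 ± 1.11 CPM per kb in ish with Dox, against 12.3 ± 0.662 CPM per kb in ish without Dox. RPS6KA1 was the least abundant of the 8 in ish with Dox, at 1.22 ± 0.00689 CPM per kb, and BRAF in the other 3 groups.

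The genes most like each kinase over the 12 libraries were described by Pearson's r of log2 CPM, with no test, since the 12 libraries fall into 4 groups and are not independent points. MAP2K1 was most like MAN1C1, a mannosidase of the Golgi (r = 0.999), ADGRG6, an adhesion G protein-coupled receptor (r = 0.999), and ITGAV, the integrin alpha V subunit (r = 0.999). ITGAV, WNT5A and ADGRG6 were also the 3 most like RPS6KA3 (r = 0.999 for each), and CDH13, GALNT1 and GPR3 were most like RPS6KA1 (r = 0.998 for each). MAP2K5 was most like ZFYVE16, PTPN21 and SASH1 (r = 0.998, 0.998 and 0.997). ARAF went with AAR2, RAB9A and INO80C (r = 0.989, 0.985 and 0.985), BRAF with USP53, ZNF800 and ZBTB20 (r = 0.995, 0.989 and 0.989), MAP2K2 with RPLP1, ABCF3 and TMEM208 (r = 0.993, 0.992 and 0.992), and MAPK3 with SLC2A14, MSX2 and DUSP13 (r = 0.991, 0.987 and 0.985).

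The other genes of the pathway were counted in lists, and each count stands beside the shares over all tested genes given above, 78.6% called in ish and 65% in ish2. Of 10 tested kinases of the JNK and p38 arms, 6 fell and 3 rose in ish (median log2 fold change -0.73, against -0.01 over all genes), and 3 fell and 1 rose in ish2 (median -0.06, against 0.01). MAPK8 and MAPK9, which encode JNK kinases, had log2 fold changes of -1.82 and -1.68 in ish, and of 0.01 and -0.02 in ish2, where neither was called (edgeR adjusted p = 0.751 and 0.65). MAPK12, a p38 kinase abundant in muscle, had -1.56 in ish and -0.17 in ish2. MAP2K3, an activator of p38, fell by 0.58 in ish and rose by 0.35 in ish2. MAP2K7, an activator of JNK, had 0.001 in ish, not called (edgeR adjusted p = 0.97), and -0.42 in ish2.

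Among 3 tested atypical MAP kinases, MAPK6, which encodes ERK3, fell by 2.68 in ish (SE 0.04, edgeR adjusted p = 5.99e-35), to 12.6 ± 0.611 CPM with Dox, against 81.0 ± 1.28 CPM without Dox (SD, n = 3 each). In ish2 its log2 fold change was -0.08 (edgeR adjusted p = 0.0421). MAPK15, which encodes ERK8, rose by 0.53 in ish and had a log2 fold change of -1.27 in ish2, where both genes were called lower. NLK was not called in ish (-0.09, edgeR adjusted p = 0.0832) and rose by 0.28 in ish2.

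Of the 9 genes of the MEK5 and ERK5 arm, 2 rose and 5 fell in ish (median -0.16), and 6 rose and 1 fell in ish2 (median 0.38). KLF2, a transcription factor gene known as an ERK5 target in endothelial cells, rose by 1.24 in ish and 1.25 in ish2. KLF4, a related target gene named after its values were seen, had log2 fold changes of -1.60 in ish and 1.57 in ish2. MAPK7, which encodes ERK5 and was named likewise, was not called in ish (0.07, edgeR adjusted p = 0.299) and had -0.36 in ish2. MAP3K2, a kinase that activates MEK5, rose by 0.21 in ish and 0.88 in ish2. PRKCI and PRKCZ, atypical protein kinase C genes, had log2 fold changes of -0.94 and -1.93 in ish, and in ish2 PRKCI rose by 0.38 while PRKCZ was not called (-0.14, edgeR adjusted p = 0.21). SQSTM1, a scaffold that binds MEK5, fell by 0.16 in ish and rose by 0.65 in ish2.

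Of 9 RSK, MSK, MNK and S6 kinase genes outside the 8, with PDPK1, 5 rose and 3 fell in ish (median 0.16), and 2 rose and 1 fell in ish2 (median 0.05). RPS6KA6, which encodes RSK4, followed RPS6KA1, with log2 fold changes of -1.65 in ish and 1.06 in ish2. RPS6KA2, which encodes RSK3 and was picked out after its values were seen to complete the family, rose by 0.31 in ish and was not called in ish2 (0.04, edgeR adjusted p = 0.394). The S6 kinase genes moved apart in ish, where RPS6KB1 rose by 0.89 and RPS6KB2 fell by 0.85, and in ish2 neither was called (edgeR adjusted p = 0.338 and 0.17). RPS6KA4, which encodes MSK2, rose by 0.16 in ish and fell by 0.14 in ish2, and MKNK2, an ERK-activated kinase of the cap-binding factor eIF4E, rose by 0.43 in ish2 and was not called in ish (0.05, edgeR adjusted p = 0.135).

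Of 24 scaffolds, adaptors and regulators, 10 rose and 9 fell in ish (median 0.02), and 10 rose and 6 fell in ish2 (median 0.04). ARRB1, an arrestin that can scaffold RAF, MEK and ERK, had log2 fold changes of -1.59 in ish and -0.52 in ish2. GRB2, the adaptor between receptors and the RAS exchange factor SOS, fell by 0.92 in ish and rose by 0.06 in ish2. CNKSR3 rose by 0.96 in ish and fell by 0.22 in ish2. LAMTOR5, of a late endosomal complex that anchors MEK1, rose by 0.47 in ish and 0.54 in ish2. IQGAP1, a scaffold that binds MEK and ERK, rose by 0.47 in ish2 and was not called in ish (-0.01, edgeR adjusted p = 0.641).

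Of 9 tested output genes of MEK and ERK, 8 fell and 1 rose in ish (median -1.30), and 5 rose and 3 fell in ish2 (median 0.20). DUSP6, an ERK phosphatase that ERK signalling induces, fell to 183 ± 10.0 CPM in ish with Dox, against 1411 ± 24.1 CPM without Dox, and had 1858 ± 27.8 CPM in ish2 with Dox, against 1541 ± 42.7 CPM without Dox (SD, n = 3 each). SPRY2 and SPRY4, feedback inhibitors of the relay, had log2 fold changes of -1.30 and -1.33 in ish and of 0.21 and 0.92 in ish2. CCND1, which encodes cyclin D1, had -2.09 in ish and -0.72 in ish2, and ETV4, an ETS factor, fell by 3.86 in ish and was not called in ish2 (0.05, edgeR adjusted p = 0.176). DUSP4 was the riser in ish, at 0.75, and rose by 0.22 in ish2. Between the uninduced lines, 7 of these 9 output genes were lower and 1 was higher in ish (median -0.15, against 0.004 over all genes), where 13.7% of all tested genes were called lower and 12.4% higher.

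Of 12 tested phosphatases that act on ERK, MEK or RAF, 4 rose and 5 fell in ish (median -0.06), and 8 rose and 3 fell in ish2 (median 0.25). DUSP6 and DUSP4 also stand in this list. DUSP5, a nuclear ERK phosphatase, fell by 0.62 in ish and rose by 1.77 in ish2, and DUSP2 fell by 0.95 in ish and rose by 1.03 in ish2. DUSP3 rose by 0.88 in ish and 0.34 in ish2, and DUSP1 rose by 0.79 in ish2 without a call in ish (-0.12, edgeR adjusted p = 0.0889).

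Of ELK1, ELK3, ELK4 and SRF, the 4 genes of the ternary complex list, 1 rose and 2 fell in ish (median -0.15), and 3 rose and 1 fell in ish2 (median 0.09). ELK1, an ERK substrate that acts with SRF, fell by 0.32 in ish and rose by 0.30 in ish2. ELK3 fell by 1.19 in ish and rose by 0.07 in ish2, and ELK4 rose by 0.48 in ish and 0.11 in ish2. SRF fell by 0.27 in ish2 and was not called in ish (0.02, edgeR adjusted p = 0.621).

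**Figure D5:**
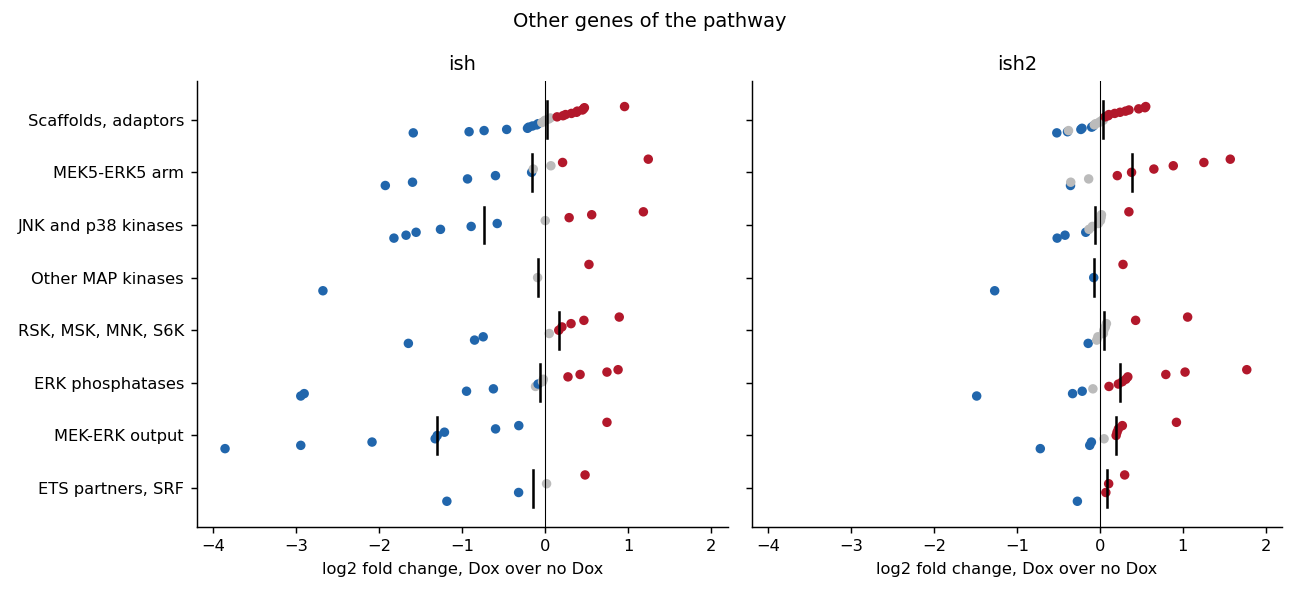
Log2 fold change, Dox over no Dox, of the tested genes of 8 pathway lists in ish (left) and ish2 (right). Red and blue points were called higher and lower, grey points were not called, and black bars are list medians, which for the MEK-ERK output genes stood at -1.30 in ish and 0.20 in ish2.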

How the data were processed

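The authors deposited raw counts per gene symbol for 12 libraries, without normalization. Per the submitters' processing notes, the tools were STAR 2.7.3a, Trim Galore 0.6.4, Subread 1.6.3 and featureCounts, in no stated order, with GRCh38 as the build. No source used here names the gene annotation. Columns were matched to samples by construct, treatment and replicate number, with Sh1 taken as ish. The 5 rows of unassigned reads, 21% to 24.4% of all reads in the table, stayed out of the fits. Ambiguous reads were 2.64% to 2.67% of gene plus ambiguous reads in ish with Dox, against 3.31% to 3.32% in ish without Dox. In ish2 they were 2.88% to 2.92% with Dox, against 3.20% without Dox. The part of these reads in the results was not tested.

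Genes were filtered with filterByExpr, which kept 15206, scaled by TMM, and fitted as 4 group means by edgeR 4.0.16 (quasi-likelihood, robust, R 4.3.3). Calls had a Benjamini-Hochberg adjusted p under 0.05 over all tested genes. Replicates varied little (common biological coefficient of variation 2.44%), and changes of a few percent can therefore be called. SE is the log2 fold change over the square root of F and is approximate. Replicate counts differed beyond sampling noise (chi-square over its degrees of freedom 1.34 to 4.10). The highest values, 3.64 and 4.10, were for pairs with ish2 no-Dox replicate 3, against 2.09 for the other pair of that group. Without that library all 8 kinases were still called in ish2. The log2 fold changes there were then 0.52 for MAP2K1, 0.52 for BRAF and 0.60 for RPS6KA1, against 0.57, 0.58 and 0.57 in the main fit. Lengths are GENCODE v29 principal transcripts, the longest where several are so marked. Promoters came from RefSeq (GRCh38.p14), and all 8 kinases matched there by symbol. Alternatives included DESeq2 1.42.0. The kinases and lists were chosen with earlier results of these data known. Genes named are the 8 kinases, NT5E, from each list at most 3 with the smallest p per construct, and 3 most alike per kinase. Genes named besides are markers, genes that overlap a kinase, and RPS6KA2, KLF4 and MAPK7, named after their values were seen.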

Additional observations from a re-analysis of the deposited data

Results flagged for a closer look

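The Dox effect of each kinase differed between the 2 constructs by a test of the difference itself (edgeR adjusted p under 0.05), which is what marked it. The differences on the log2 scale, ish minus ish2, were -2.96 for MAP2K1, -2.41 for RPS6KA1, -1.44 for RPS6KA3, -0.47 for MAPK3 and -0.23 for BRAF. They were 1.43 for MAP2K5, 0.30 for MAP2K2 and 0.15 for ARAF. Across all tested genes 72.6% differed by the same test, so a call alone does not set the kinases apart. No group had enough libraries for a check of single outlying values.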

How the results depend on the processing

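Among recalculated log2 fold changes of single kinases, 602 kept their direction and their side of the threshold, 17 kept their direction and lost the call, and 5 changed sign. The sign changes were all between the uninduced lines and near 0: MAP2K1, -0.01 as reported, was 0 with library sizes only and ran from -0.049 to 0.01 when each library was left out in turn, and RPS6KA1, -0.02 as reported, ran from -0.067 to 0.034. Against a null of a 1.2-fold change, the kinases called numbered 3 in ish2, 5 in the difference and 0 between the uninduced lines. Leaving out each library gave 8 calls throughout in ish and in the difference, 6 to 8 in ish2, and 0 to 1 between the uninduced lines. Same-numbered libraries of a construct did not deviate together (residual correlation -0.08 to 0.03). With the replicate number as a block the fit again called 8, 8, 8 and 1 kinases in ish, ish2, the difference and the uninduced lines. MAP2K1 shares with all exon bases as length were chosen after seeing the data. With 3 libraries a group, the calls of ARAF and MAP2K5 in ish2 and of RPS6KA3 between the uninduced lines were not stable. Each was lost in at least 1 fit that left out a single library, while the direction stayed the same.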
